A study of Mus musculus with 6 samples.

Results

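Epoxide hydrolases and lipoxygenases are 2 groups of enzymes that act on oxygenated fatty acids, and 8 of their genes were examined in cancer-associated fibroblasts (CAFs) of mouse colonic adenomas. They are the epoxide hydrolase genes Ephx1, Ephx2, Ephx3 and Ephx4, the lipoxygenase genes Alox5, Alox12 and Alox15, and Alox5ap, whose product presents arachidonic acid to the product of Alox5. The genes were chosen by name from their rows in the deposited table, with their levels and their differences between the same 6 libraries already known. The levels and differences of these 8 genes are therefore given as a description, with no test. All 8 names matched exactly 1 of the 49548 genes in the table, and all 8 had at least 1 normalized count in total, as did 26402 genes of the series. Averaged over the 6 libraries, 5 of them reached 10 normalized counts, Ephx1, Ephx2, Ephx3, Alox12 and Alox15.

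The libraries were 3 of Col6a1+ CAFs, sorted as GFP+ cells, and 3 of Col6a1- CAFs, sorted as Tomato+ cells. All came from adult mice, of which the study used both sexes, of the strain C57/BL6 and the genotype Col6a1-cre, Rosa26-mTmG, in which adenomas were raised with AOM, a carcinogen, and DSS, which injures the colonic epithelium. In these mice Cre recombination switches a cell and its progeny from membrane Tomato to membrane GFP, so that the 2 sorted fractions came from the same reporter animals and differed in whether the Col6a1-driven Cre had been active. The Cre line marks mainly fibroblasts with high PDGFRa and perivascular cells, and the Tomato+ fraction holds trophocytes and most other fibroblasts, so each subset is a mixture. Each library was a pool of tumors from several mice, and the sort left out cells with CD45, EpCAM, CD31 or Ter119. Quantities are normalized counts, that is reads per gene divided by the authors' size factors, from libraries that read the 3′ end of each transcript.

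Both enzyme groups belong to the metabolism of arachidonic acid and related fatty acids. Phospholipases release the fatty acid from membranes, lipoxygenases add oxygen to it to give hydroxy fatty acids and leukotrienes, and cytochrome P450 epoxygenases turn it into epoxides, which epoxide hydrolases open to diols. The epoxides are known for relaxing blood vessels, and leukotrienes for recruiting leukocytes to inflamed mucosa.

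RefSeq promoter windows on GRCm38.p6, the assembly that mm10 represents, were found for 5 of the 8 genes (Ephx1, Ephx3, Ephx4, Alox5 and Alox12). They reach from 250 bases before to 50 bases after a transcript start. The windows of Ephx3 and Alox12 are shown because these genes had the largest differences in either direction. Capitals mark the letters TGAGTCA, which bind AP-1, and GGGCGG, the GC box, on either strand.
Ephx3, chr17:32189421-32189720, minus strand: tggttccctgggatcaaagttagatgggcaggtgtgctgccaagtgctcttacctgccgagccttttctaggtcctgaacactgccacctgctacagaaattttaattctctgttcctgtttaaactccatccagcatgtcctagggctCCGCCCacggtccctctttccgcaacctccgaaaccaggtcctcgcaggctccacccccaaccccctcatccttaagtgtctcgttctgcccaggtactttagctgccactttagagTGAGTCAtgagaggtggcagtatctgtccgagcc
Alox12, chr11:70255321-70255620, minus strand: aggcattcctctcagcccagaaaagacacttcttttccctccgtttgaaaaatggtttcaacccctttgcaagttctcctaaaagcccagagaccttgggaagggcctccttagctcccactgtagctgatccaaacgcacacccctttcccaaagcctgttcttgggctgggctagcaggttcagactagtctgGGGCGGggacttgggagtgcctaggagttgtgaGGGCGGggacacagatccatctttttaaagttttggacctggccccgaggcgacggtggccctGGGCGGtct
The Ephx3 window held 1 AP-1 motif, beginning at base 17 after the start, and 1 GC box, and the Alox12 window held 3 GC boxes and no AP-1 motif. Of the 32851 promoter windows in the RefSeq table, 5.2% held the AP-1 letters and 35.7% a GC box. Neither the letters GTGGGAA, which bind RBPJ (in 6.38% of all windows), nor TATAAA (in 13.6%) were in these 2 windows. No 2 matches overlapped, and the motifs were chosen with the levels known and describe the letters only.

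Ephx3 (ENSMUSG00000037577, chromosome 17 from 32183770 to 32189549 of mm10) had the largest difference of the 8 genes. Its enzyme hydrolyses epoxides of arachidonic and linoleic acid and is best known from the skin. In Col6a1+ CAFs it reached 775, 426 and 921 normalized counts, compared with 5, 4 and 5 in Col6a1- CAFs. Every Col6a1+ library was high and every Col6a1- library was near the level that counting can just detect. The means were 707 ± 254 and 4.67 ± 0.577 normalized counts (SD, n = 3 each), a ratio of 152. A 95% interval for this ratio, which covers counting error only and treats normalized counts as reads, ran from 90.1 to 278 (exact binomial). On the scale of log2(normalized count + 1), the mean was 6.90 higher in Col6a1+ CAFs (standard error 0.35), and 4 of the 26402 genes had a larger positive difference. It stayed between 6.67 and 7.23 when any 1 library was left out.

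The other 3 epoxide hydrolase genes did not share this pattern. Ephx1 (ENSMUSG00000038776, chromosome 1 from 180976210 to 181020904), the microsomal enzyme known for opening epoxides of drugs and pollutants, had 153, 57 and 67 normalized counts in Col6a1+ CAFs and 67, 77 and 50 in Col6a1- CAFs. The subsets overlapped, and Col6a1+ replicate 1 alone stood above the rest. The mean log2 value was 0.39 higher in Col6a1+ CAFs (standard error 0.47), and without Col6a1+ replicate 1 the difference was -0.04.

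Ephx2 (ENSMUSG00000022040, chromosome 14 from 66084377 to 66124500) encodes the soluble epoxide hydrolase, the main enzyme that degrades arachidonic acid epoxides. It had 4, 18 and 37 normalized counts in Col6a1+ CAFs and 27, 39 and 31 in Col6a1- CAFs, so that its levels overlapped and were widely spread among the Col6a1+ libraries. The mean log2 difference, Col6a1+ minus Col6a1-, was -1.10 (standard error 0.87) and lay between -1.76 and -0.30 with any 1 library left out, nearest to 0 without Col6a1+ replicate 1.

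Ephx4 (ENSMUSG00000033805, chromosome 5 from 107402736 to 107430035), a relative whose substrates are less well known, was at 0, 2 and 0 normalized counts in Col6a1+ CAFs and at 17, 5 and 9 in Col6a1- CAFs. The Col6a1- libraries all lay above the Col6a1+ libraries, although at few counts. Summed over libraries, 31 counts stood against 2, a ratio of 15.5 with a 95% counting interval of 3.94 to 134. At this depth a 0 is compatible with as many as 3 counts.

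**Figure D1:**
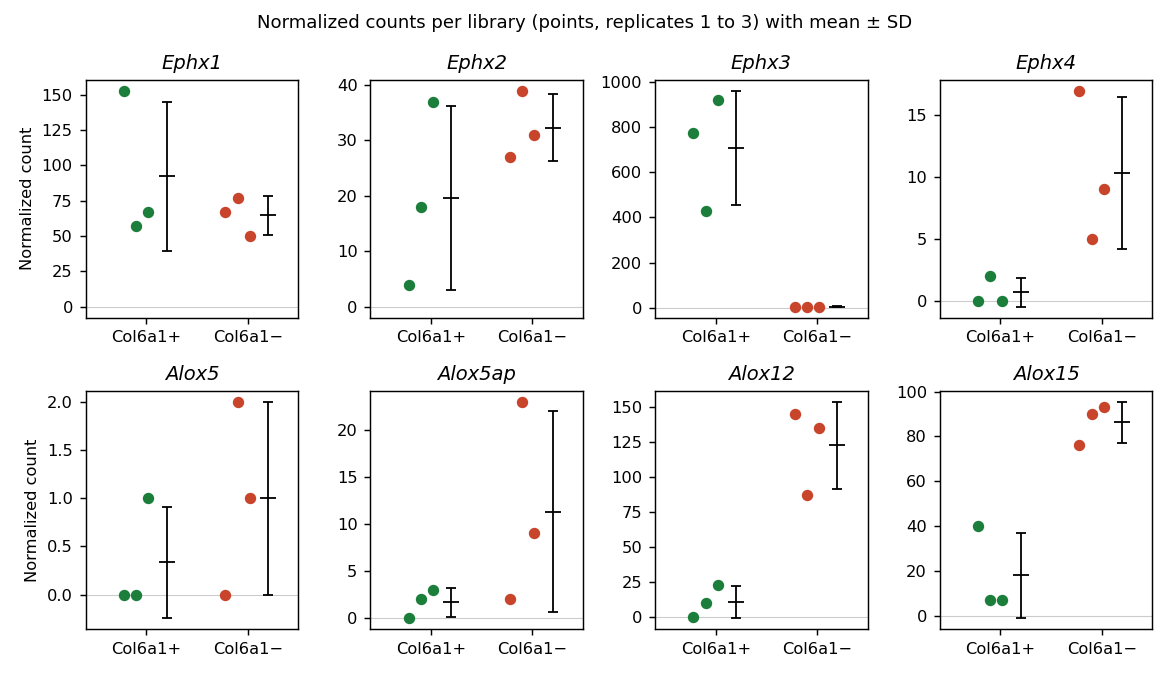
Normalized counts of the 8 genes (y axis, own linear scale in each panel) in the 3 Col6a1+ and 3 Col6a1- CAF libraries (points, in the order of replicates 1 to 3), with the mean and SD of each subset beside them. Ephx3 lies at 426 to 921 in Col6a1+ CAFs and at 4 to 5 in Col6a1- CAFs, whereas Alox12 and Alox15 lie higher in all 3 Col6a1- libraries.

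Among the lipoxygenase genes, Alox12 and Alox15 had the higher levels in Col6a1- CAFs. Alox12 (ENSMUSG00000000320, chromosome 11 from 70241457 to 70255353), the platelet-type lipoxygenase gene, had 0, 10 and 23 normalized counts in Col6a1+ CAFs and 145, 87 and 135 in Col6a1- CAFs. No Col6a1+ library reached the lowest Col6a1- library. The means were 11 ± 11.5 and 122 ± 31.0 normalized counts (SD, n = 3 each), so that the mean was 11.1 times higher in Col6a1- CAFs. The mean log2 difference of -4.23 (standard error 1.40) went to -2.89 without Col6a1+ replicate 1, the library at 0, and to -5.18 without Col6a1+ replicate 3. One annotated Alox12 transcript carries, between 269 and 433 bases from its 3′ end, a stretch that matched transcripts of 48 other genes at 90% to 94.6% identity, and reads from there may be hard to assign.

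Alox15 (ENSMUSG00000018924, chromosome 11 from 70344152 to 70352031) encodes the lipoxygenase of macrophages and eosinophils, which also takes part in making lipoxins. It had 40, 7 and 7 normalized counts in Col6a1+ CAFs and 76, 90 and 93 in Col6a1- CAFs. The Col6a1- libraries lay close together and all above the Col6a1+ libraries, of which replicate 1 was the highest. The means were 18.0 ± 19.1 and 86.3 ± 9.07 normalized counts (SD, n = 3 each), and the mean was 4.80 times higher in Col6a1- CAFs. The mean log2 difference was -2.66 (standard error 0.79), between -3.44 and -2.26 with any 1 library left out.

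Alox5 and Alox5ap, the pair that begins leukotriene synthesis in leukocytes, were scarce. Alox5 (ENSMUSG00000025701, chromosome 6 from 116410077 to 116461178) had 0, 0 and 1 normalized counts in Col6a1+ CAFs and 0, 2 and 1 in Col6a1- CAFs, too few for a fold change at this depth. Alox5ap (ENSMUSG00000060063, chromosome 5 from 149264767 to 149288153) had 0, 2 and 3 normalized counts in Col6a1+ CAFs and 2, 23 and 9 in Col6a1- CAFs. Its levels overlapped at 2 to 3 counts, and most of its 34 counts in Col6a1- CAFs came from replicate 2. The summed ratio of Col6a1- to Col6a1+ CAFs was 6.80, with a 95% counting interval of 2.65 to 22.3. This interval leaves out the spread between libraries. The mean log2 difference, Col6a1+ minus Col6a1-, was -1.97 (standard error 1.06).

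Of the 8 genes, 1 (Ephx3) was higher in Col6a1+ CAFs without overlap between the 3 and 3 libraries, as were 7.91% of the genes tested, and 3 (Ephx4, Alox12 and Alox15) were lower without overlap, as were 11.6%. The remaining 4 overlapped. The 8 differences had a median of -1.54 on the log2 scale, against -0.27 over all 26402 genes. Because the genes were picked with this comparison known, nothing is read from these counts. In bulk libraries, fewer cells that express a gene and less RNA per cell cannot be told apart.

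**Figure D2:**
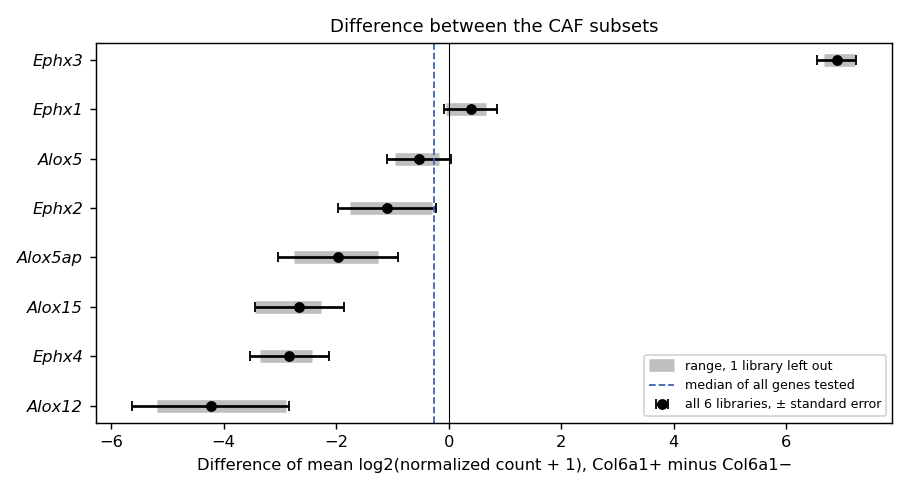
Difference of the mean log2(normalized count + 1), Col6a1+ minus Col6a1- CAFs (x axis), for each of the 8 genes (y axis), with the standard error as a black bar, the range with 1 library left out as a grey band, and the median of all genes as a dashed line. Ephx3 stands alone at 6.90, Ephx1 lies at 0.39, and the other 6 genes lie below 0, down to -4.23 for Alox12.

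The labelled cell type was compared with marker lists. All 8 fibroblast markers had counts, with sums of 42619 to 46297 normalized counts in Col6a1+ CAFs and 8733 to 15884 in Col6a1- CAFs, and 6 pericyte markers summed to between 40108 and 88864 against 1089 to 2026. Markers of cells that the sort excluded were present too, and the sums of the epithelial and immune lists differed between the subsets without overlap. The 10 epithelial markers, none of them at 0 in either subset, all had a higher mean in Col6a1- CAFs, although Krt20 overlapped, with sums of 25584 to 39899 against 6105 to 7336 and a ratio of means of 5.09. All 10 immune markers had counts, with sums of 254 to 462 in Col6a1- and 73 to 85 in Col6a1+ CAFs, and Cd3e was at 0 in Col6a1+ and Cd79a in Col6a1- CAFs.

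The cells best known for Alox5ap, Alox15 and Alox12 were looked at in the same way. Markers of mast cells and eosinophils had counts for 7 of 10 genes, with sums of 147 to 517 in Col6a1- CAFs and 0 to 7 in Col6a1+ CAFs. Most of these counts were from the mast cell proteases Mcpt1 and Mcpt2, while the eosinophil genes Epx, Prg2 and Ccr3 were at 0 in all 6 libraries. All 6 neutrophil markers had a higher mean in Col6a1- CAFs, summing to 720 to 1687 against 157 to 321, with Retnlg at 0 in Col6a1+ CAFs, although Cxcr2 and Csf3r overlapped between the subsets. The sums of 8 macrophage markers overlapped, at 48 to 126 in Col6a1- and 35 to 93 in Col6a1+ CAFs, with Adgre1 at 0 in Col6a1- CAFs. Of these markers, 5 had a higher mean log2 value in Col6a1+ CAFs and 3 in Col6a1- CAFs. Platelet and erythroid markers overlapped between the subsets, at sums of 314 to 2724 in Col6a1- and 246 to 1722 in Col6a1+ CAFs. Among the platelet genes, Pf4 had 82, 6 and 8 normalized counts in Col6a1+ CAFs and 9, 5 and 2222 in Col6a1- CAFs, so that most of the highest sum was Pf4 in 1 library. Ppbp had 15, 2 and 0 against 333, 1 and 9, Itga2b was present in all 6 libraries at 1 to 39, and Gp9 was at 0 throughout. Pf4, Ppbp and Itga2b each overlapped between the subsets. The part of these cells in the levels of Ephx2, Ephx4, Alox12, Alox15 and Alox5ap was not tested.

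The sums of 8 endothelial markers also overlapped, at 308 to 533 in Col6a1- and 183 to 406 in Col6a1+ CAFs. Even so, 7 of the 8 had a higher mean log2 value in Col6a1- CAFs. The exception was Tie1, with 220, 56 and 152 normalized counts in Col6a1+ CAFs and 1, 7 and 21 in Col6a1- CAFs. The sums of 6 glial markers overlapped too, at 29 to 76 and 55 to 73, of which Sox10, Gfap and Foxd3 were at 0 in Col6a1- CAFs. The pericyte markers moved in the direction of Ephx3, with a ratio of 38.2 between Col6a1+ and Col6a1- CAFs, and their part in its level was not tested. Col6a1 itself had 861, 1287 and 1941 normalized counts in the Col6a1+ and 182, 321 and 102 in the Col6a1- libraries. Normalized counts summed to between 3039152 and 3425249 per library, and between 14530 and 20511 genes had a count, fewest in Col6a1+ replicate 1.

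**Figure D3:**
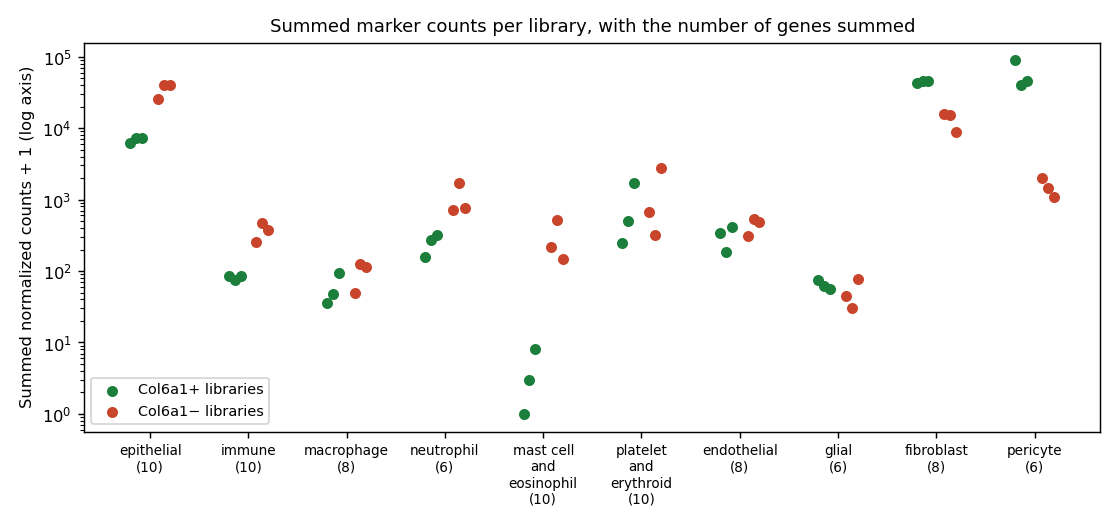
Summed normalized counts plus 1 (y axis, log scale) of each marker list (x axis, number of genes in brackets) in the 3 Col6a1+ (green) and 3 Col6a1- (red) libraries. Epithelial, immune, neutrophil and mast cell sums are higher in all 3 Col6a1- libraries, fibroblast and pericyte sums in all 3 Col6a1+ libraries.

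The genes with the pattern most like each of the 5 more abundant members were looked up over the 6 libraries, among 13514 other genes that averaged 10 or more normalized counts. For Ephx3 they were Nmur1, a neuromedin receptor gene (Pearson r of log2 values 0.999, n = 6 libraries), Rgs4, a regulator of G protein signalling, (0.998) and Sash1 (0.997). Nmur1 had 33, 21 and 47 normalized counts in Col6a1+ CAFs and 0 in each Col6a1- library. For Alox12 they were Stx7 (0.998), Mecom (0.997) and Tbc1d30 (0.997), for Alox15 Ap1s3 (0.994), Mob4 (0.993) and Ykt6 (0.990). For Ephx1 the nearest genes were Agpat3 (0.999), Stim2 (0.996) and Gng12 (0.985), and for Ephx2 the pseudogene Gm15666 (0.999), Rnf183 (0.999) and Pfkfb4 (0.997). With 6 points that share the same 2 groups such values are common, as an r over 0.95 was reached by 65 genes for Ephx1, 268 for Ephx2, 354 for Ephx3, 382 for Alox12 and 102 for Alox15.

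Of the other genes of the pathway, 102 were listed, 99 had a row and 77 had a count and were tested with limma (two-sided, Benjamini-Hochberg adjustment over all 26402 genes). At an adjusted p under 0.05, 2 of the 77 were higher in Col6a1+ CAFs (2.60%, against 2.66% of all genes) and 3 were lower (3.90%, against 1.96%). The share of higher genes was near that of all genes. The median log2 difference of the 77 genes was -0.60, against -0.27 over all genes. The lists were chosen with earlier results of these data known, so nothing is read from these shares or this median.

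In leukotriene synthesis, 1 of 10 tested genes passed. Ggt5, whose product cleaves leukotriene C to leukotriene D, had 464, 580 and 904 normalized counts in Col6a1+ CAFs and 29, 83 and 34 in Col6a1- CAFs. Every Col6a1+ library lay far above the Col6a1- libraries, with a log2 difference of 3.81 (standard error 0.45, limma adjusted p = 0.00181). Of the fatty acid omega-hydroxylases, 1 of 12 passed, Cyp4b1, with 123, 75 and 68 normalized counts in Col6a1+ CAFs and 0, 3 and 8 in Col6a1- CAFs (log2 difference 4.71, standard error 0.91, limma adjusted p = 0.0159).

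Lower in Col6a1+ CAFs were 2 of 18 phospholipases. Pla2g2a, of the secreted phospholipase family, had 124, 133 and 153 normalized counts in Col6a1+ CAFs and 3733, 875 and 1347 in Col6a1- CAFs. Its log2 difference was -3.58 (standard error 0.47, limma adjusted p = 0.00232). These are RNA levels, and whether an active enzyme is made from them was not measured. Pla2g12a, another gene of that family, had 22, 32 and 44 against 220, 112 and 174 (log2 difference -2.33, standard error 0.45, limma adjusted p = 0.0165). Of 12 genes for breakdown and re-esterification of these lipids, Acsl3, a synthetase of fatty acyl-CoA, passed with 104, 131 and 89 against 562, 481 and 694 normalized counts (log2 difference -2.41, standard error 0.31, limma adjusted p = 0.00232). For each of these 5 genes the 2 subsets did not overlap, which adds no support because the fit on the same libraries picked them. Of all genes tested, 7.91% were higher and 11.6% lower in Col6a1+ CAFs without overlap.

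The replicate numbers were read as pairs, and with them as a block none of the 5 genes passed (limma adjusted p = 0.0612 to 0.115). No gene of the series passed then either, with a smallest adjusted p of 0.0612. With the same block over genes that averaged 10 or more normalized counts, an alternative chosen after seeing the data, all 5 passed (limma adjusted p = 0.00193 to 0.016). None of the 5 passed without Col6a1- replicate 1 or without Col6a1- replicate 3, and 3 or 4 of them passed without any other single library. Over all alternatives the adjusted p ranged from 5.99e-04 to 0.0749 for Ggt5, 0.00684 to 0.115 for Cyp4b1, 9.62e-04 to 0.0736 for Pla2g2a, 0.0116 to 0.144 for Pla2g12a and 0.00127 to 0.0717 for Acsl3.

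No gene passed among 3 other lipoxygenases, 10 receptors and 12 cytochrome P450 epoxygenases. Several of them had few counts, such as Gpr75 with 0, 0 and 0 in Col6a1+ and 2, 0 and 0 in Col6a1- CAFs. At such levels a missing call does not show equal expression. Alox12e, the gene that lies between Alox12 and Alox15 on chromosome 11 (from 70315610 to 70322628) and encodes an epidermal lipoxygenase, had 0, 1 and 7 normalized counts in Col6a1+ CAFs and 37, 9 and 8 in Col6a1- CAFs (limma adjusted p = 0.293). Aloxe3 had at most 4 in any library (limma adjusted p = 0.898). The cysteinyl leukotriene receptor genes leaned the other way without passing. Cysltr1 had 11, 33 and 52 normalized counts in Col6a1+ CAFs and 5, 5 and 3 in Col6a1- CAFs (limma adjusted p = 0.184), and Cysltr2 had 0, 8 and 41 against 0 in each Col6a1- library (limma adjusted p = 0.280). The epoxygenases nearest to the threshold were Cyp2c68, at 0, 3 and 0 against 25, 20 and 11 normalized counts (limma adjusted p = 0.0811), and Cyp2j6, at 69, 55 and 40 against 161, 144 and 113 (limma adjusted p = 0.0901). With limma-voom Cyp2c68 passed, and Cyp2j6 passed with the block over genes with a mean of at least 10, within ranges over the alternatives of 0.0135 to 0.234 and 0.0443 to 0.252.

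**Figure D4:**
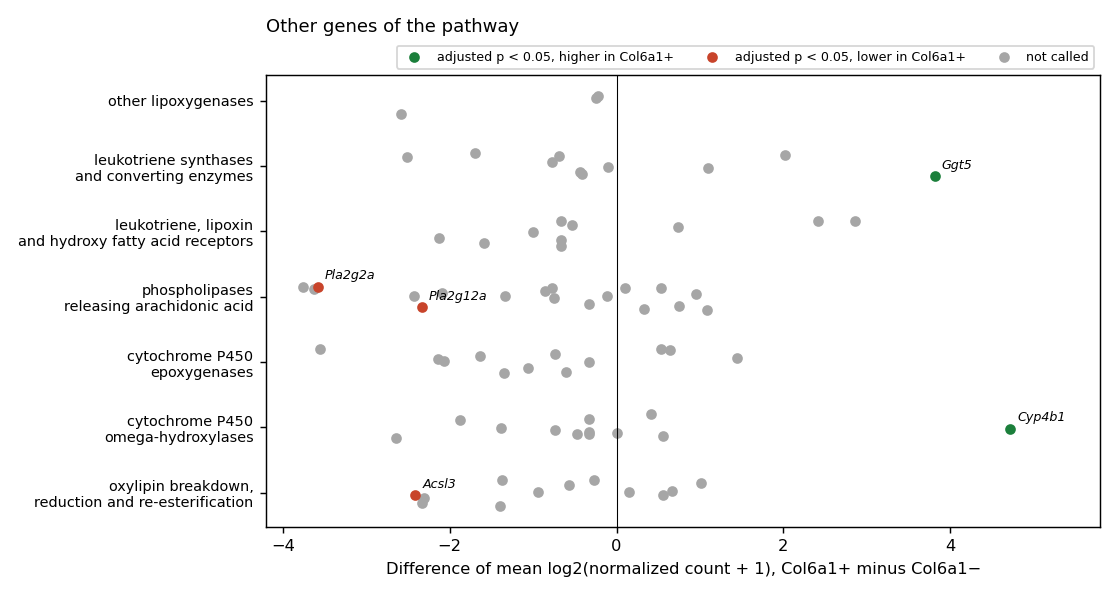
Difference of the mean log2(normalized count + 1), Col6a1+ minus Col6a1- CAFs (x axis), of the 77 tested genes in 7 lists of the pathway (y axis, points spread vertically for legibility), coloured where the limma adjusted p was under 0.05. Ggt5 and Cyp4b1 are higher in Col6a1+ CAFs, and Pla2g2a, Pla2g12a and Acsl3 lower.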

How the data were processed

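The authors sequenced QuantSeq 3′ mRNA libraries on an Ion Proton instrument, mapped reads to mm10 with TopHat2, mapped the remainder with Bowtie2, and counted and normalized them through metaseqR and DESeq. Their deposited table gives the log2 of the normalized count plus 1 per library, which is a whole normalized count in 100% of values (within 0.1%). The authors' fold changes, p-values and false discovery rates and a further 6 per-sample columns were not used. The labels gave the groups and the replicate numbers. The members and gene lists were chosen with earlier results of these data known.

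Member values were described as means ± SD, differences of mean log2 values and exact binomial 95% intervals (SciPy 1.17.1). Other genes were tested with limma 3.58.1 (R 4.3.3, empirical Bayes with a mean trend, prior degrees of freedom 6.48, residual 4) over 26402 genes with at least 1 normalized count. The test was checked on simulated data with a common setting of spread for all genes and no pairing. That check does not cover the replicate block or libraries of uneven quality. The genes named are the 8 members, every listed pathway gene with an adjusted p under 0.05, the 2 with the smallest p in lists without one, and the 3 genes most correlated with each member of mean at least 10. P-values of the main fit measure the spread between libraries of the same subset, each from a pool of tumors. That fit takes the 6 libraries as independent and leaves out the pairing of replicate numbers.

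Deviations of same-numbered libraries from their group means correlated at 0.245, 0.125 and 0.144 over 13515 genes, each over 0.1, so the numbers were read as pairs, although 1 differently numbered pair (Col6a1+ replicate 2 with Col6a1- replicate 3) reached 0.150 and the other such pairs lay between -0.245 and 0.0401. Alternatives were library size alone, a mean of at least 10, a pseudocount of 0.1, the replicate block, limma-voom and leaving out each library, with the filter applied to the other 5. The block over genes averaging 10 or more was added after seeing the data. The last 500 bases of member transcripts of GENCODE M21 were compared with all transcripts by BLAST 2.17.0 (at least 90% identity over at least 50 bases). Ephx1, Ephx3 and Ephx4 matched 2, 1 and 1 other genes, and 4 members matched none. Promoter sequences are from RefSeq on GRCm38.p6. The value of 1 marker gene is not reported here. Plots were drawn with Matplotlib 3.10.9.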

Additional observations from a re-analysis of the deposited data

How the results depend on the processing

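Of the 64 alternative values of the member differences, 2 moved by more than the spread between replicates, both with a pseudocount of 0.1, to -5.07 for Ephx4 and -1.46 for Alox5, and 1 changed sign, that of Ephx1 without Col6a1+ replicate 1 (-0.04). All genes numbered 703 higher and 517 lower in Col6a1+ CAFs. With the replicate block these were 0 and 0 (1851 and 2567 at an unadjusted p under 0.05), and 0 and 0 of the pathway genes (5 and 15 unadjusted), all by limma. With the block over genes with a mean of at least 10, 981 genes were higher and 871 lower, and 4 pathway genes were higher and 5 lower. A pseudocount of 0.1 left 336 genes lower and 1 pathway gene higher, and limma-voom gave 1006 lower genes and 5 lower pathway genes. With 1 library left out, 11 to 453 genes were higher and 1 to 442 lower, with 0 to 1 and 0 to 3 of the pathway genes, and the fewest genes were without Col6a1- replicate 1. Without Col6a1- replicate 1 or 3, 0 pathway genes passed in either direction. The causes were not tested. Aloxe3 changed sign without Col6a1+ replicate 1 (0.16), Col6a1+ replicate 2 (0.16) or Col6a1- replicate 3 (0.27), ranging from -1 to 0.27 with 1 library left out, with no call. Beside these 3 values of Aloxe3, the named pathway genes kept direction and side of the threshold in 98 comparisons with an alternative, lost the call in 23 and gained it in 2. Levels near 3 normalized counts, as for Alox5, are limited by depth.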
